A study of Arabidopsis thaliana with 6 samples.

Results

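GSTU22 (AT1G78340) and GSTU25 (AT1G17180) are tau-class glutathione S-transferase genes of Arabidopsis thaliana. Each is read by 1 probe set that the platform annotation assigns to it alone, so 2 genes of the 13355 with such a probe set are described here. They were picked because an earlier look at these same arrays gave them large differences between estradiol and mock. Their values under that comparison are therefore given as a description, without a test.

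Transcripts were measured with 1-colour Affymetrix arrays on total RNA of whole Col-0 seedlings, 3 arrays for mock and 3 for estradiol. All seedlings, mock included, were T3 plants aged 14 days from long days (16 h light, 8 h dark) that carry XVE, a constitutively expressed chimeric factor that moves into the nucleus when estradiol binds it, and RPX∆C, a version of RPX, a transcription factor of the NAC family, placed behind a LexA promoter that XVE switches on. The estradiol group was harvested 2 h after 10 µM estradiol. The labels give the mock as ethanol in one place and as medium without inducer in another. Sample titles give the 2 h for the estradiol group only, so whether mock was harvested at a matching time is not settled. No seedlings without the transgene were analysed here, so the effects of estradiol, of a possible vehicle and of RPX∆C cannot be told apart. The labels name neither the number of independent lines nor the number of seedlings per sample, and they call the samples biological replicates without saying whether they came from separate cultures.

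Glutathione S-transferases join the tripeptide glutathione to reactive, electrophilic compounds, and the conjugates are then moved into the vacuole. The tau class is found in plants, is encoded by many genes that often lie in tandem, and is known for transcripts that respond strongly to herbicides, safeners, oxidised lipids and other reactive chemicals. GSTU25 is known for its activity towards the explosive 2,4,6-trinitrotoluene.

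The values are the authors' intensities per probe set, called signal here, on a linear scale common to all arrays, with a median between 35.7 and 38.7. No detection calls were used, and the number of arrays limits the precision. Estradiol replicate 3 stood apart in its control transcripts. The ratio of 3' to 5' signal within control transcripts, which rises when RNA is broken or incompletely copied, was highest on that array for 6 of 6 control pairs. One actin pair gave 15.2 there and 4.37 to 6.11 on the other arrays, and the matching ubiquitin pair gave 2.37 against 1.26 to 1.42. One of the GAPDH pairs also followed the groups on the other arrays: its ratio was 1.65 to 2.07 in mock and 1.04 and 1.12 on estradiol replicates 1 and 2. Mock replicates 1 and 2 had a 25S rRNA control signal of 302 and 286, against 918 to 1534 on the other 4 arrays. Correlations between arrays followed the groups only in part. Estradiol replicates 1 and 2 correlated at 0.989, and mock replicates 1 and 2 at 0.982. Mock replicate 3 correlated at 0.974 and 0.977 with mock replicates 1 and 2. With estradiol replicates 1, 2 and 3 it correlated at 0.981, 0.978 and 0.980. Estradiol replicate 3 correlated at 0.979 and 0.974 with estradiol replicates 1 and 2. Of the markers of shoot and root, LHCB4.2 and PYK10 were bright on every array. The 3 measured of 6 shoot markers (LHCB4.2, LHCB4.3 and FAMA) summed to a signal of 2596 to 2853 in mock and 2268 to 2629 with estradiol, mostly from LHCB4.2, a photosystem II antenna protein. The 3 measured of 5 root markers (PYK10, EXPA18 and EXPA7) summed to 2504 to 2685 in mock and 1682 to 2612 with estradiol, mostly from PYK10, a root beta-glucosidase. EXPA18 was the dimmest of the 6 (mean signal 27.2 in mock and 20.1 with estradiol), and without detection calls its presence is not settled. In whole seedlings, more cells that express a gene and more RNA per cell cannot be told apart.

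In replicates 1, 2 and 3, in this order here and for the other genes, GSTU22 gave a mock signal of 78.5, 49.2 and 66.1 and an estradiol signal of 616, 600 and 320. Every estradiol value exceeded every mock value, and the lowest estradiol value was 4.08 times the highest mock value. The mean was 64.6 ± 14.7 in mock and 512 ± 166 with estradiol (SD, n = 3 each), a ratio of means of 7.93. On the log2(signal + 16) scale the difference between estradiol and mock was 2.67 ± 0.27 (SE). SE, here and below, is limma's moderated SE, which is pulled towards the typical spread of all probe sets. For this gene and GSTU25 it is smaller than an SE from the gene's own values alone. The 9 pairings of an estradiol with a mock array gave log2 differences between 1.83 and 3.28.

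GSTU25 gave a mock signal of 67.9, 28.0 and 26.4 and an estradiol signal of 498, 399 and 178. The groups did not overlap here either, but the gap was narrower, with the lowest estradiol value at 2.62 times the highest mock value. The mean was 40.7 ± 23.5 in mock and 358 ± 164 with estradiol (SD, n = 3 each), a ratio of means of 8.80. The log2 difference was 2.68 ± 0.42 (moderated SE), and single array pairs gave between 1.21 and 3.60. Arrays with the same replicate number gave log2 differences of 2.62, 3.24 and 2.20 for GSTU25 and of 2.74, 3.24 and 2.03 for GSTU22.

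**Figure D1:**
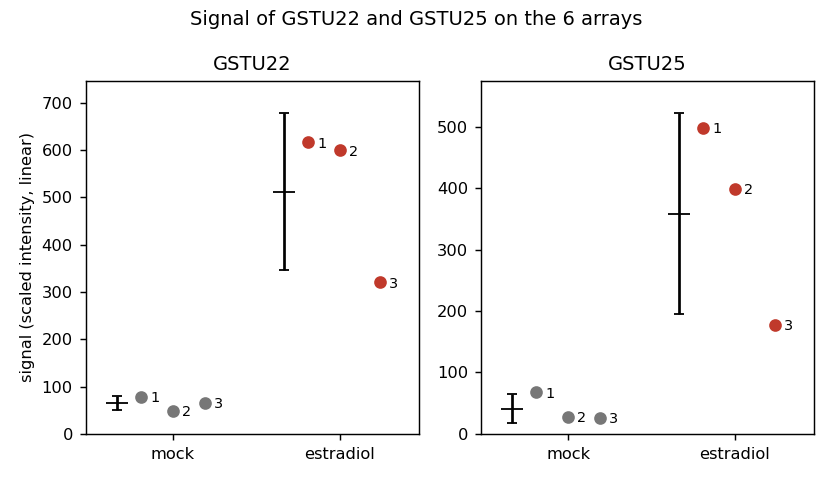
Signal of GSTU22 and GSTU25 (linear scale, from 0) on the 3 mock arrays (grey) and the 3 estradiol arrays (red), with the replicate number beside each point; black bars show the mean and SD of each group (n = 3). No estradiol point lies below a mock point, and estradiol replicate 3 is the lowest of its group for both genes.

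Of all 22746 probe sets, GSTU22 and GSTU25 had the 2 largest positive log2 differences at a pseudocount of 16. The order between them was not stable: GSTU25 was larger by 2.68 to 2.67 with all arrays, and GSTU22 by 2.69 to 2.51 without mock replicate 3 and by 2.12 to 1.95 with a pseudocount of 64. Across all probe sets, 26 (0.114%) were higher with estradiol at a limma adjusted p under 0.05, and 0 (0%) were lower by limma, where 1942 (8.54%) had an unadjusted p under 0.05 in either direction. The lowest estradiol value exceeded the highest mock value in 1318 probe sets (5.79%), which include both genes. The genes were picked on this comparison, so nothing is read from these counts.

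The spread between estradiol arrays was wide for both genes. The SD of log2(signal + 16) over the estradiol arrays was 0.51 for GSTU22, larger than for 97.8% of all probe sets, and 0.74 for GSTU25, larger than for 99.5%. In mock the SD was 0.27 for GSTU22, larger than for 77.0% of probe sets, and 0.55 for GSTU25, larger than for 98.3%. These shares are over all 22746 probe sets, of which 7787 had a mean signal under 16. There the added 16 compresses the spread, which can raise the shares given for brighter probe sets. The highest estradiol value was 1.92 times the lowest for GSTU22 and 2.80 times for GSTU25. In mock the same ratio was 1.60 for GSTU22 and 2.57 for GSTU25. The wide mock spread of GSTU25 came from mock replicate 1, while replicates 2 and 3 were close to each other. GSTU22 was also highest on mock replicate 1, by less.

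The estradiol spread came from replicate 3. Its signal was 52.7% of the mean of replicates 1 and 2 for GSTU22 and 39.7% for GSTU25, which is a log2 difference of -0.89 for GSTU22 and -1.25 for GSTU25. Over all 22746 probe sets this difference had a median of 0.01, with quartiles of -0.18 and 0.20. A lower value than that of GSTU22 was found in 1.03% of probe sets, and a lower value than that of GSTU25 in 0.286%. These shares also run over the 7787 dim probe sets, where the pseudocount compresses differences, which can make the shares smaller. Both genes were picked with earlier results of these arrays known, so the shares are a description, not a test. Among the 97 other probe sets in which the groups did not overlap, with estradiol higher and a log2 difference of at least 1, the median was -0.45, and 83 (85.6%) were lower on estradiol replicate 3 than on both other estradiol arrays, against 36.2% of all probe sets. Of these 97, 5 had a lower value than GSTU22 and 1 had a lower value than GSTU25. The 97 were picked after the data were seen. Among the probe sets past the adjusted threshold, without GSTU22 and GSTU25 and with a small spread helping to pass it, the median was -0.18 and the lowest value -0.60. Estradiol replicate 3 also had the highest 3' to 5' ratios, and the part of broken or incompletely copied RNA in these values was not tested. Without estradiol replicate 3 the log2 difference between estradiol and mock was 2.97 for GSTU22 and 3.10 for GSTU25.

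**Figure D2:**
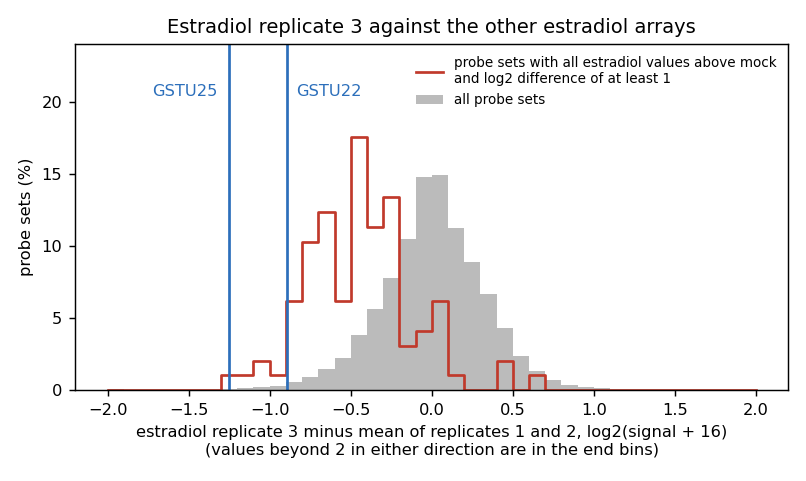
Distribution over probe sets (percent, y axis) of the log2(signal + 16) of estradiol replicate 3 minus the mean of estradiol replicates 1 and 2 (x axis), for all 22746 probe sets (grey bars) and for the 97 in which every estradiol value exceeded every mock value, with a log2 difference of at least 1 (red line, median -0.45). Blue lines mark GSTU22 at -0.89 and GSTU25 at -1.25, both in the lower tail of the grey bars.

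No other measured gene of the tau class had a difference of this size. Of the 26 tau genes besides GSTU22 and GSTU25, 9 were measured, that is, have a probe set assigned to them alone. Limma's adjusted threshold was passed in either direction by 0 of the 9, against 0.114% of all probe sets. An unadjusted limma p under 0.05 was found in 3 (GSTU18 and GSTU27, lower, and GSTU20, higher), against 8.54% of all probe sets. Of these 9, 1 had a positive and 8 had a negative difference, where 12992 of all 22746 probe sets had a negative one. The median log2 difference of the 9 was -0.30, against -0.03 over all probe sets. GSTU20 was the positive one. It is known for a part in the synthesis of aliphatic glucosinolates, the sulphur-containing defence compounds of crucifers. Its signal was 41.9, 48.9 and 70.0 in mock and 81.5, 67.0 and 141 with estradiol. The groups overlapped, and estradiol replicate 3 was the highest array, whereas GSTU22 and GSTU25 were lowest there within the estradiol group. Its log2 difference was 0.66 ± 0.26 (SE, limma adjusted p = 0.564), and 0.39 without estradiol replicate 3.

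In 4 of the 9 tau genes (GSTU18, GSTU27, GSTU26 and GSTU15) the highest estradiol value was below the lowest mock value, an arrangement found in 7.74% of all probe sets, and none of the 4 passed the adjusted threshold. GSTU18 had a mean signal of 245 ± 39.2 in mock and 166 ± 19.6 with estradiol (SD, n = 3), a log2 difference of -0.51 (limma adjusted p = 0.431). GSTU27 had 233 ± 18.5 in mock and 174 ± 14.3 with estradiol, a log2 difference of -0.39 (limma adjusted p = 0.426). GSTU16 had 283 ± 7.44 and 230 ± 49.1, a log2 difference of -0.30 with groups that overlapped (limma adjusted p = 0.654). GSTU28 differed by -0.19 on the log2 scale (limma adjusted p = 0.81). The probe sets of GSTU15, GSTU21 and GSTU23 had a mean signal under 16 over the 6 arrays, where the added 16 compresses differences. Their log2 differences were -0.23, -0.36 and -0.09.

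**Figure D3:**
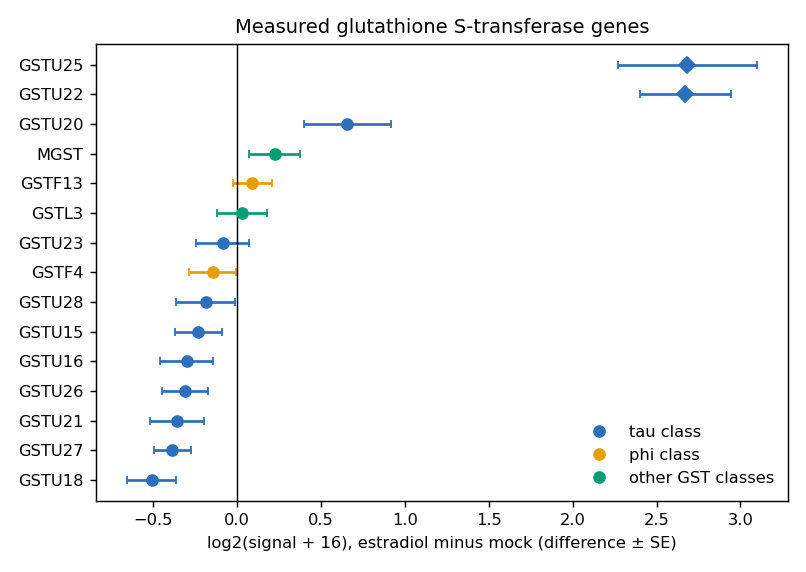
Log2(signal + 16) difference, estradiol minus mock (x axis, bars show the SE from limma, n = 3 arrays per group), of the 15 measured glutathione S-transferase genes, coloured by class; diamonds are GSTU22 and GSTU25. GSTU25 (2.68) and GSTU22 (2.67) lie to the right of the other genes, which range from -0.51 (GSTU18) to 0.66 (GSTU20).

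Both genes lie on chromosome 1, in separate tandem groups of tau genes. In the order of protein-coding genes in the RefSeq table of assembly TAIR10.1, GSTU23 is the next gene on one side of GSTU22, and GSTU21, GSTU20 and GSTU19 follow on the other. GSTU23 gave a mean signal of 14.9 ± 1.73 in mock and 13.4 ± 5.5 with estradiol (limma adjusted p = 0.916), and GSTU21 gave 10.8 ± 2.12 and 5.11 ± 4.19 (limma adjusted p = 0.606). The groups overlapped for both of these neighbours. GSTU25 lies between GSTU24 and GSTU26. GSTU26 had a signal of 45.3, 38.0 and 36.5 on the mock arrays and of 34.3, 22.0 and 31.3 on the estradiol arrays, a log2 difference of -0.31 (limma adjusted p = 0.604). GSTU24 and GSTU19 were not analysed here, since no probe set is assigned to either alone. Tandem copies can be similar in sequence, and cross-hybridisation between copies was not tested.

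Outside the tau class, 4 further glutathione S-transferase genes were measured: 2 of 13 of the phi class and 2 of 13 others. They had log2 differences close to 0. GSTF4 gave -0.15 and GSTF13 0.09, both phi-class genes, and GSTF13 was dim. GSTL3, a lambda-class enzyme, gave 0.03, and AT1G65820, which encodes a microsomal glutathione S-transferase, gave 0.22. None passed limma's adjusted threshold (adjusted p between 0.726 and 0.981), which 0.114% of all probe sets did, and the groups overlapped in all 4. Taking all 13 measured glutathione S-transferase genes besides GSTU22 and GSTU25, of 52 listed, the median log2 difference was -0.19.

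Genes that make, recycle or break down glutathione were thinly covered, with 3 of 27 measured. GR1 and GR2, the glutathione reductases that regenerate the reduced form, had log2 differences of 0.11 and -0.11. The remaining gene, AT1G44790, encodes a gamma-glutamyl cyclotransferase that degrades glutathione, and its difference was 0.06. Of the 3, 0 passed the threshold by limma (0.114% of all probe sets did) and 0 had an unadjusted p under 0.05 (8.54% did). The groups overlapped in each. The median log2 difference of 0.06 changed sign when single arrays were left out, from -0.12 without mock replicate 2 to 0.18 without mock replicate 1. The vacuolar conjugate transporters of the ABCC family were not analysed here.

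Among other genes known to respond to reactive chemicals, differences went in both directions. Of 28 listed genes 6 were measured. Limma's adjusted threshold was passed by 0 of the 6, against 0.114% of all probe sets. An unadjusted limma p under 0.05 was found in 4, against 8.54% of all probe sets. The median log2 difference was 0.24. UGT73B4, a glucosyltransferase that acts on foreign phenolic compounds, had a signal of 84.2, 51.2 and 41.1 on the mock arrays and of 224, 254 and 127 on the estradiol arrays. The groups did not overlap, and estradiol replicate 3 was the lowest estradiol array, as for GSTU22 and GSTU25. Its log2 difference was 1.53 ± 0.30 (SE, limma adjusted p = 0.216). Across the 16 settings tried, that adjusted p ranged from 0.0293 to 0.635 and was under 0.05 in 2, both with dim probe sets left out.

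UGT73B5, its neighbour in the same enzyme family, had a signal of 89.7, 65.4 and 53.6 in mock and 97.8, 119 and 94.4 with estradiol. The groups did not overlap, by a small gap, and the log2 difference was 0.50 (limma adjusted p = 0.516). As the RefSeq entries of UGT73B4 and UGT73B5 overlap and the genes are related, signal shared between them is possible and was not tested. AT2G04050 (DTX3), a multidrug exporter of the MATE family, had 45.8, 43.2 and 73.7 in mock and 140, 139 and 61.5 with estradiol. Here estradiol replicate 3 lay below mock replicate 3, so the groups overlapped, and the log2 difference of 0.84 (limma adjusted p = 0.529) was 1.17 without that estradiol array (adjusted p = 0.18). AT2G04070 (DTX4), of the same family, was dim and differed by -0.41 on the log2 scale (limma adjusted p = 0.581). AER and AOR, which reduce reactive alkenals and are named here to complete the 6, had log2 differences of -0.02 and -0.11.

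**Figure D4:**
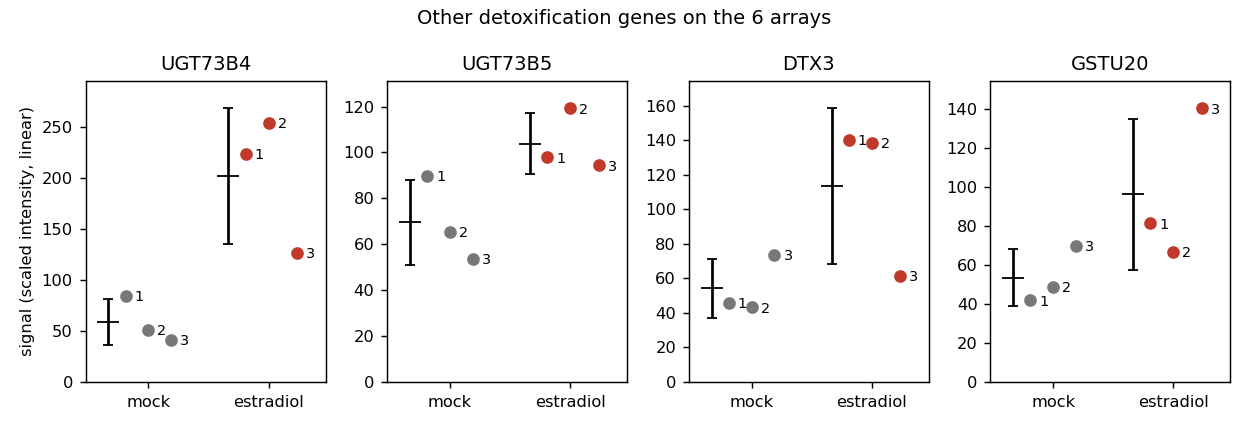
Signal (linear scale, from 0) of UGT73B4, UGT73B5, DTX3 and GSTU20 on the 3 mock arrays (grey) and 3 estradiol arrays (red), with replicate numbers; black bars show the mean and SD of each group (n = 3). Estradiol replicate 3 is the lowest estradiol array for the first 3 genes and the highest for GSTU20 (141).

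The genes closest to GSTU22 and GSTU25 over the 6 arrays were looked up among all 13355 genes. Closeness was the root mean square difference of log2(signal + 16) after each gene was centred on its 6-array mean. GSTU22 was the gene closest to GSTU25, at 0.27 log2 units, and GSTU25 was second for GSTU22, just after AT2G20720 at 0.26. The median over all genes compared was 1.40 for GSTU22 and 1.47 for GSTU25. AT2G20720 gave 14.3, 1.86 and 6.43 in mock and 103, 112 and 59.5 with estradiol (difference of 2.19 on the log2 scale, limma adjusted p = 0.0584), and it was second for GSTU25 at 0.37. AT5G05190 ranked 3 for both, at 0.41 and 0.43, with a signal of 130, 111 and 66.0 in mock and 551, 569 and 347 with estradiol (difference of 2.10 on the log2 scale, limma adjusted p = 0.0693). At rank 4 stood AT1G20180 for GSTU22 (0.49) and AT1G04330 for GSTU25 (0.53). In each of these genes estradiol replicate 3 was the lowest estradiol array. In mock, AT2G20720, AT5G05190 and AT1G04330 were highest on replicate 1, as GSTU22 and GSTU25 were. AT1G20180 was lowest there, with signals of 1.06, 6.38 and 5.01. All mock signals of AT1G20180, AT2G20720 and AT1G04330 (4.15, 0.462 and 0.372) lie under the pseudocount of 16, so their order in mock carries little weight. The measure selects genes with a large difference of the same sign and with like values on each single array. The shared order of replicates is thus largely built into the choice, and the likeness is a description.

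**Figure D5:**
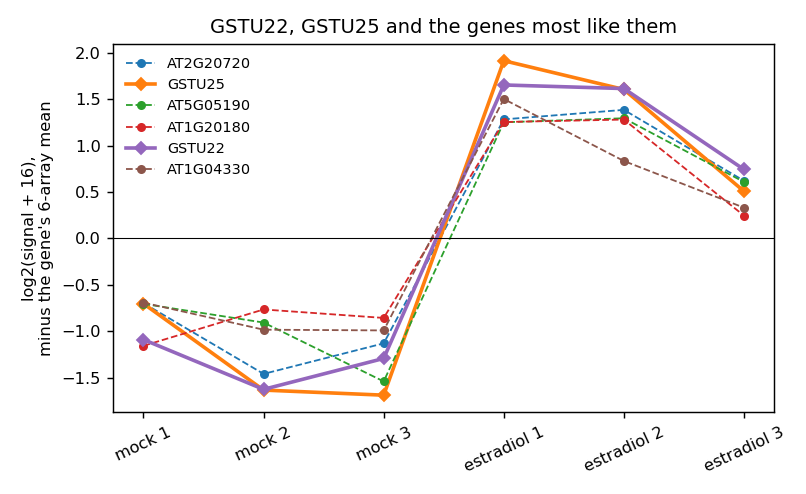
Log2(signal + 16) of GSTU22, GSTU25 (thick lines, diamonds) and the 4 other genes closest to them (dashed), each minus its own 6-array mean (y axis), on the 6 arrays (x axis); lines join the values of 1 gene and imply no order of arrays. All 6 genes are below their mean on the mock arrays and above it on the estradiol arrays, with estradiol replicate 3 the lowest of its group.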

How the data were processed

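The authors deposited 1 linear intensity per probe set and array; per the submitters' processing notes GCOS and affy were used, with no version. How probes were summarised was not stated in what was used here. The mean after trimming 2% at each end was 100.0 on every array. Of 22810 probe sets, 64 controls were left out and 22746 tested without a filter; 13513 have 1 gene in the platform annotation (updated to TAIR10.1 through Entrez IDs), 503 several and 8730 none listed. Intensities were compared as log2(intensity + 16) by limma 3.58.1 under R 4.3.3 (two-sided moderated test, lmFit then eBayes, group as the only term, Benjamini-Hochberg over all probe sets, threshold 0.05). The pseudocount understates changes of dim probe sets. With 3 arrays a group, the smallest p of an exact permutation test is 0.1. The members and gene lists were chosen with earlier results of these data known. Named were the tau genes, up to 4 genes of smallest p per other list, and the 4 genes closest to each member; a gene with several probe sets took the brightest. Protein and promoter sequences were not analysed here. Of the code, only the limma fit was tested on simulated data, with independent noise, for recovery of changes added to brighter probe sets.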

Additional observations from a re-analysis of the deposited data

How the results depend on the processing

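The log2 differences of GSTU22 and GSTU25 were positive under all alternatives tried (pseudocount, quantile normalization, array weights, pairing and arrays left out). Every estradiol value exceeded every mock value, so the sign was fixed for all of these but quantile normalization. The replicate block cannot change the differences in a balanced design. Only their size under the other settings could vary. For GSTU22 and GSTU25 the differences were 2.93 and 3.12 with a pseudocount of 1, and 2.12 and 1.95 with a pseudocount of 64. When each array was left out they ranged from 2.51 to 2.97 and from 2.40 to 3.10. Counts of calls were far less stable. Against 26 probe sets, limma called 0 with a pseudocount of 1, 11 with a pseudocount of 64, 97 when the dimmest 25% by mean signal were left out, 91 without those under 16 on every array, 51 with a trended robust variance, 92 with array weights and 0 without replicate 3 of both groups. When each array was left out the count ranged from 0 (without mock replicate 2, estradiol replicate 1 or estradiol replicate 2) to 57 (without estradiol replicate 3). Among the other response genes, UGT73B4 passed with either filter on dim probe sets, a count of 1. In the lists of other glutathione S-transferase genes and of glutathione genes 0 passed under every alternative run. Pairing of the arrays by replicate number was partial at most. Deviations from the group means correlated at 0.0908 and 0.113 for numbers 1 and 2, and at 0.329 for number 3. Of the 6 arrays, 2 correlated best with their own number. With the replicate block 17 probe sets were called. With 3 arrays a group and no detection calls, small differences of dim relatives cannot be resolved.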
